A study of Mus musculus with 9 samples.

Results

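The genes described here are 40 genes of mitosis and of the G2/M transition, the step at which a cell that has copied its DNA enters division. They were taken by symbol from a table of 23171 gene rows, and all 40 had a row. The 9 RNA libraries were made from CD4 T cells taken from lymph nodes and spleen in C57BL6 mice. The 3 Hopx high libraries and the 3 Hopx low libraries hold T cells sorted for different levels of Hopx, a small homeodomain protein, and the 3 other libraries are called naive. The labels give all 9 libraries the same treatment. Dendritic cells were targeted with chimeric antibodies that carry an antigen, given into the peritoneum 5 days ahead of the first sort. The sorted T cells then spent 12 h in culture with antigen-presenting cells and were sorted a second time. The labels do not say which animals gave the naive cells, whether animals were pooled or whether each replicate is its own animal. The p-values here therefore reflect the scatter among these libraries, which may be technical. The comparisons ask how the RNA of restimulated T cells differs with their level of Hopx and between Hopx groups and naive cells.

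Entry into mitosis is driven by the kinase Cdk1 bound to cyclin A or cyclin B. Plk1 and the Aurora kinases then act on centrosomes, chromosomes and the spindle. Condensin and topoisomerase II fold and untangle the chromosomes, kinesin motors build the spindle and the spindle checkpoint holds back the anaphase-promoting complex until all chromosomes are attached. The RNA of most of these genes is low in resting T cells and rises late in the cell cycle once a T cell has been activated. That timing is set largely by the cell cycle genes homology region, or CHR, a short promoter element bound by the DREAM complex in resting cells and by complexes that hold B-Myb or FoxM1 in cycling cells. Many of these promoters also hold CCAAT boxes, which bind NF-Y.

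The promoters below belong to the 6 genes with the smallest p between Hopx high and Hopx low among those with a CHR match ahead of the start and a promoter in the table. Each sequence is the 250 bases before the RefSeq start in assembly GRCm38.p6, written 5′ to 3′ on the strand of the gene. Capitals mark CHR matches (TTTGAA, its reverse complement TTCAAA, or TTCGAA) and CCAAT boxes (CCAAT or its reverse complement ATTGG). Adjacent capitals in Ube2c are a CCAAT and an ATTGG that share 2 bases. They lie as follows: Ube2c at chr2:164769679-164769928 (plus strand), Kif11 at chr19:37376132-37376381 (plus strand), Mki67 at chr7:135716380-135716629 (minus strand), Top2a at chr11:99024190-99024439 (minus strand), Bub1b at chr2:118597961-118598210 (plus strand) and Ncapg at chr5:45669675-45669924 (plus strand). GENCODE M21 places the start of Ube2c at base 164769898, inside the window printed.
Ube2c: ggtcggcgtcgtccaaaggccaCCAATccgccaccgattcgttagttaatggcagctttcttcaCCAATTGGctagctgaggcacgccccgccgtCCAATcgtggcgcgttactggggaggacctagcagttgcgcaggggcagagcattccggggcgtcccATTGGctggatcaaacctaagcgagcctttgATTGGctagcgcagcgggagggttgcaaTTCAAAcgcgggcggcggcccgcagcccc
Kif11: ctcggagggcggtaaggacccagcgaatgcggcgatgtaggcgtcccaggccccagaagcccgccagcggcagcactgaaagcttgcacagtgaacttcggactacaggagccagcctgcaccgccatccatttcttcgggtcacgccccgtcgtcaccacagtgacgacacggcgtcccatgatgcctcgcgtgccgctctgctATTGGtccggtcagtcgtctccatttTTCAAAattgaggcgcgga
Mki67: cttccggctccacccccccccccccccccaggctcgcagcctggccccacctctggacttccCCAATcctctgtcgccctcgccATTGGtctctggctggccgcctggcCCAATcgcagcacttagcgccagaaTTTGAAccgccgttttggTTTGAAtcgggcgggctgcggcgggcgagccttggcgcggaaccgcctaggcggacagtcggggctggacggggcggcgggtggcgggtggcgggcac
Top2a: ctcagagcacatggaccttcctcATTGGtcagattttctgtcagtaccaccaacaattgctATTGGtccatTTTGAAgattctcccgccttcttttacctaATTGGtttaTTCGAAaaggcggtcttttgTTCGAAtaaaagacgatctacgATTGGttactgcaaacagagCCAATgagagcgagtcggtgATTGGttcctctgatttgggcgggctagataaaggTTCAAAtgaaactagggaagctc
Bub1b: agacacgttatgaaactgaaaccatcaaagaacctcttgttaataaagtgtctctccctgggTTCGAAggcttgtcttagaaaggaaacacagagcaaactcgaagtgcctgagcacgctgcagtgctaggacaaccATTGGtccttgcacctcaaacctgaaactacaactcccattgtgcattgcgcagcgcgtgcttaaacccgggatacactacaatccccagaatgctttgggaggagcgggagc
Ncapg: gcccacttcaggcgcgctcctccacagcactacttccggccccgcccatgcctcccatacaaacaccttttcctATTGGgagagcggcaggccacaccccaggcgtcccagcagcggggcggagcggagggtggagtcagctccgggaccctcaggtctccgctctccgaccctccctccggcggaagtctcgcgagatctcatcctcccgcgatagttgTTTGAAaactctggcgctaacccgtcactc

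These words are short, so matches occur in many promoters. Of the 40 genes, 34 matched a RefSeq promoter by symbol, and Smc4, Incenp, Kif20a, Tpx2, Ccna2 and Aurkb did not. In the window from 250 bases before to 50 bases after the start, 27 of 34 promoters (79.4%) held a CHR match. The share was 21.7% of 27025 genes with a promoter in the table and 16.1% of the 8012 that also had a row averaging 1 base per Mb or more. It was 66.1% in a second list of mitosis genes (37 of 56) and 20% in a list of G1/S genes (6 of 30), which act at the step before. In the 250 bases before the start alone, the share was 47.1% of the 34 promoters and 19.6% of all. A CCAAT box stood in 28 of the 34 windows (82.4%), against 41.1% of all promoters and 60% of the G1/S promoters. A window held CHR and CCAAT matches together in 24 of 34 genes (70.6%), against 8.61% of all. Of 39 CHR matches, 16 lay in the first 50 transcribed bases, 9 in the 50 bases before the start, 2 in the 50 before those and 12 farther upstream. Plk1, for one, held its match after the start. A match is a run of letters and not a site of binding, which was not measured.

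**Figure D1:**
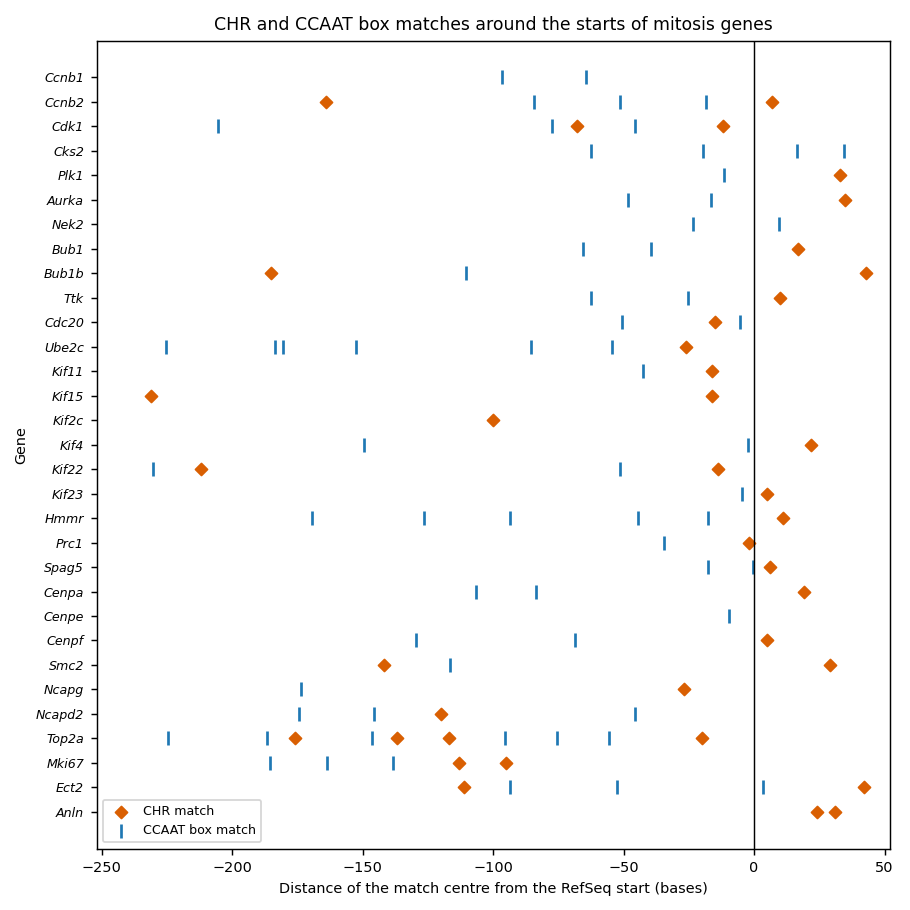
Position of CHR matches (diamonds) and CCAAT box matches (bars) in the 31 promoters with a match among the 34 available, by distance of the match centre from the RefSeq start in bases. Of 39 CHR matches 16 lie within 50 bases after the start, 9 within 50 before it and 12 more than 100 before it, and 4 of 66 CCAAT boxes lie after it.

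Values are given in bases per Mb, the bases of coverage summed over a gene for each Mb of coverage in the library. The libraries held 800, 364 and 203 Mb in Hopx high, 420, 330 and 442 Mb in Hopx low, and 63.3, 86.5 and 289 Mb in naive. A read of an assumed 100 bases is therefore worth 0.125 to 0.492 bases per Mb in the Hopx libraries, and 1.58, 1.16 and 0.346 in naive libraries 1, 2 and 3. With the Gas5 row left out, naive 1 and 2 differed by no more than sampling noise. They were averaged, so naive counts as 2 samples in the tests. Gas5 held 39.99% of the coverage in naive 1, 29.1% in naive 2 and 5.68% in naive 3. In the Hopx libraries its share ran from 1.16% in Hopx high 1 to 21.3% in Hopx high 2. A large share of Gas5 lowers the bases per Mb of every other row in that library. The Hopx row was at 8.95, 7.79 and 4.89 bases per Mb in Hopx high, against 3.32, 6.90 and 3.29 in Hopx low and 0, 0 and 1.64 in naive libraries. All 13 CD4 T cell marker rows had coverage in each group, and Cd8a averaged 0 in Hopx high, 0.121 in Hopx low and 0 in naive. The other CD8 T cell marker, Cd8b1, was at 14.8 to 31.1 in Hopx high, 25.3 to 31.1 in Hopx low and 15.6 to 23.8 bases per Mb in naive. Summed B cell markers, 11 rows, were at 3.79 to 10.01 bases per Mb in Hopx high, against 22.7 to 31.2 in Hopx low and 13.4 to 45.8 in naive, with Cd22, Blk and Cr2 at 0 in all Hopx high libraries. Summed dendritic cell and monocyte markers, 19 rows, were at 17.1 to 64.4, 26.1 to 87.3 and 24.4 to 48.8 in the same order of groups. Xcr1, Clec9a, Cd209a and Siglech were at 0 in every group. Cd74 was the highest of these rows and averaged 23.4, 24.2 and 13.3 in that order. H2-Aa averaged 4.94, 9.39 and 5.02, H2-Ab1 3.94, 9.51 and 6.37, and H2-Eb1 2.82, 6.75 and 2.25. Summed NK cell markers, 8 rows, were at 7.95 to 29.9, 4.53 to 20 and 0.537 to 3.03, with Klrb1c, Klra8, Klre1 and Gzma at 0 in every group. Most of the sum was Nkg7 in the Hopx groups, but Nkg7 was at 0 in every naive library. Klrd1 averaged 0.294 in Hopx high, 0.615 in Hopx low and 1.46 in naive. The part of these cells in the results below was not tested.

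The mitosis genes were highest in Hopx high cells, intermediate in Hopx low cells and lowest in naive cells. Summed over the 40 genes, the level was 757, 540 and 554 bases per Mb in Hopx high libraries 1, 2 and 3, against 364, 302 and 409 in Hopx low and 97.7, 125 and 314 in naive. All Hopx high sums lay above all Hopx low sums, and naive 3 overlapped Hopx low. One gene, Smc4, made up 10.5 to 16.6% of the sum in Hopx high, 30.6 to 40.1% in Hopx low and 49.4 to 60.9% in naive. Without it the sums were 631, 459 and 496 in Hopx high, 218, 185 and 284 in Hopx low, and 48.3, 63.1 and 123 in naive, and the groups did not overlap. The ratio of the Hopx high to the Hopx low mean was 1.72 with Smc4 and 2.31 without it. On totals that leave out Gas5, the sums over the 40 genes were 766, 686 and 601 in Hopx high. They were then 387, 371 and 426 in Hopx low and 163, 176 and 333 in naive. The list was made with earlier results of these data known, so no p is given for a sum.

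**Figure D2:**
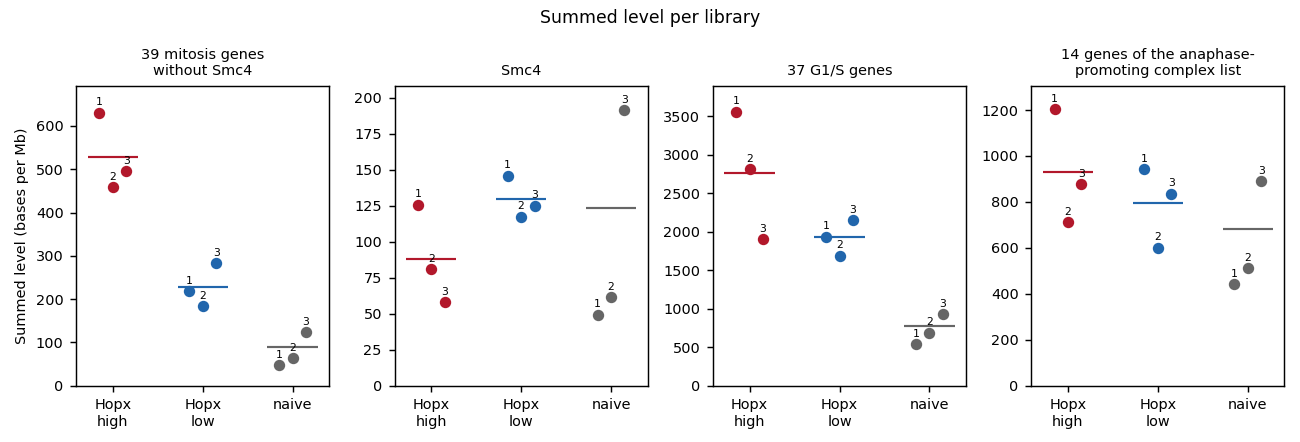
Summed level per library in bases per Mb for 39 mitosis genes without Smc4, Smc4 alone, 37 G1/S genes and 14 genes of the anaphase-promoting complex list. Points are libraries with their replicate number and bars are group means, naive 1 and 2 counted once. The 39 genes separate the 3 groups, whereas Smc4 alone and the anaphase-promoting complex list overlap.

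The RNA of most single genes was scarce. The median gene of the 40 stood at 11.2, 7.56 and 7.07 bases per Mb in Hopx high, against 2.75, 2.58 and 4.03 in Hopx low, and 0, 0 and 0.732 in naive. The median of all rows tested was 17.7 to 30.8 in Hopx high, 23.1 to 32.1 in Hopx low and 12.4 to 31.7 in naive. Coverage above 0 was found for 40, 40 and 39 of the genes in Hopx high, 40, 38 and 40 in Hopx low, and 10, 14 and 31 in naive. Naive 1 and 2 are the shallowest libraries, and 25 of the genes were at 0 in both. 7 genes were at 0 in all naive libraries. The highest of the 9 libraries was a Hopx high library for 38 of the 40, and it was Hopx high 1, the deepest library, for 26. The share of all rows highest in these libraries was not counted. The exceptions were Nusap1, highest in Hopx low 3, and Smc4, highest in naive 3.

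**Figure D3:**
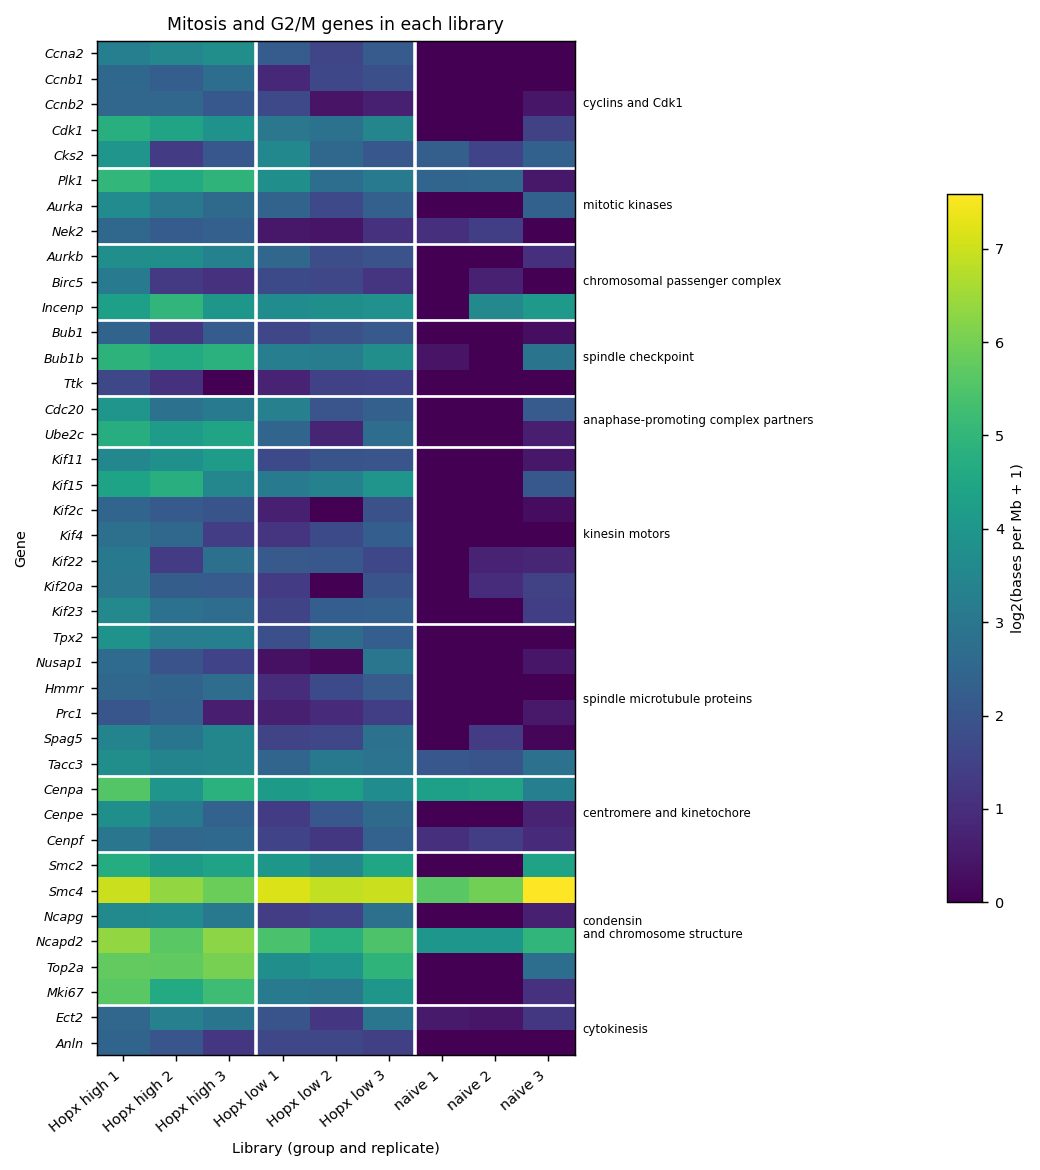
Level of each of the 40 genes in each of the 9 libraries as log2(bases per Mb + 1), ordered by role, with Hopx high, Hopx low and naive from left to right. Most rows are brightest in the Hopx high columns and at or near 0 in naive 1 and 2, and Smc4 is bright in every column.

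Between Hopx high and Hopx low, the test was limma on log2(bases per Mb + 1), with Benjamini-Hochberg adjustment over every row averaging 1 base per Mb or more. With the 6 Hopx libraries alone, Ube2c, Kif11 and Mki67 rose in Hopx high, which is 3 of 40 genes, or 3 of the 53 rows called higher (0.489% of 10846). None of the 40 was called lower (16 rows, 0.148%). With all 9 libraries in 1 fit, limma called 0 of 39 mitosis genes and 0% of 10825 rows. In that fit 15 of the 39 had an unadjusted p under 0.05, all higher, against 2.07% of all rows higher and 2.43% lower. In the 6-library fit it was 21 of 40, all higher, against 3.31% of all rows higher and 6.46% lower. The authors' deposited table gave such a p to 18 of 40, all higher (1.45% of rows higher, 2.37% lower). In the 6-library fit the log2 difference was positive for 37 of 40 genes and for 3282 of 10846 rows. Its median over the genes was 0.98, while the median over all rows tested was -0.25. The 3 with a negative difference were Smc4, Ttk and Cks2.

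All Hopx high libraries lay above all Hopx low libraries for 24 of the 40 genes, against 4.55% of all rows. The other 16 overlapped, and none lay wholly below, where 9.98% of all rows did. Replicate numbers paired the Hopx libraries. The high library was above the low one of the same number in all 3 pairs for 25 genes and in 2 pairs for 11. It was so in 1 pair for 3 genes and in none for Smc4. The share of all rows with such pairs was not counted. By pair, the median log2 difference of the 40 genes was 1.43, 1.30 and 0.40 for numbers 1, 2 and 3, while the median over 10764 rows was 0.07, -0.03 and -0.76. In a bulk sample, fewer cells in mitosis and less of these RNAs per cell cannot be told apart.

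**Figure D4:**
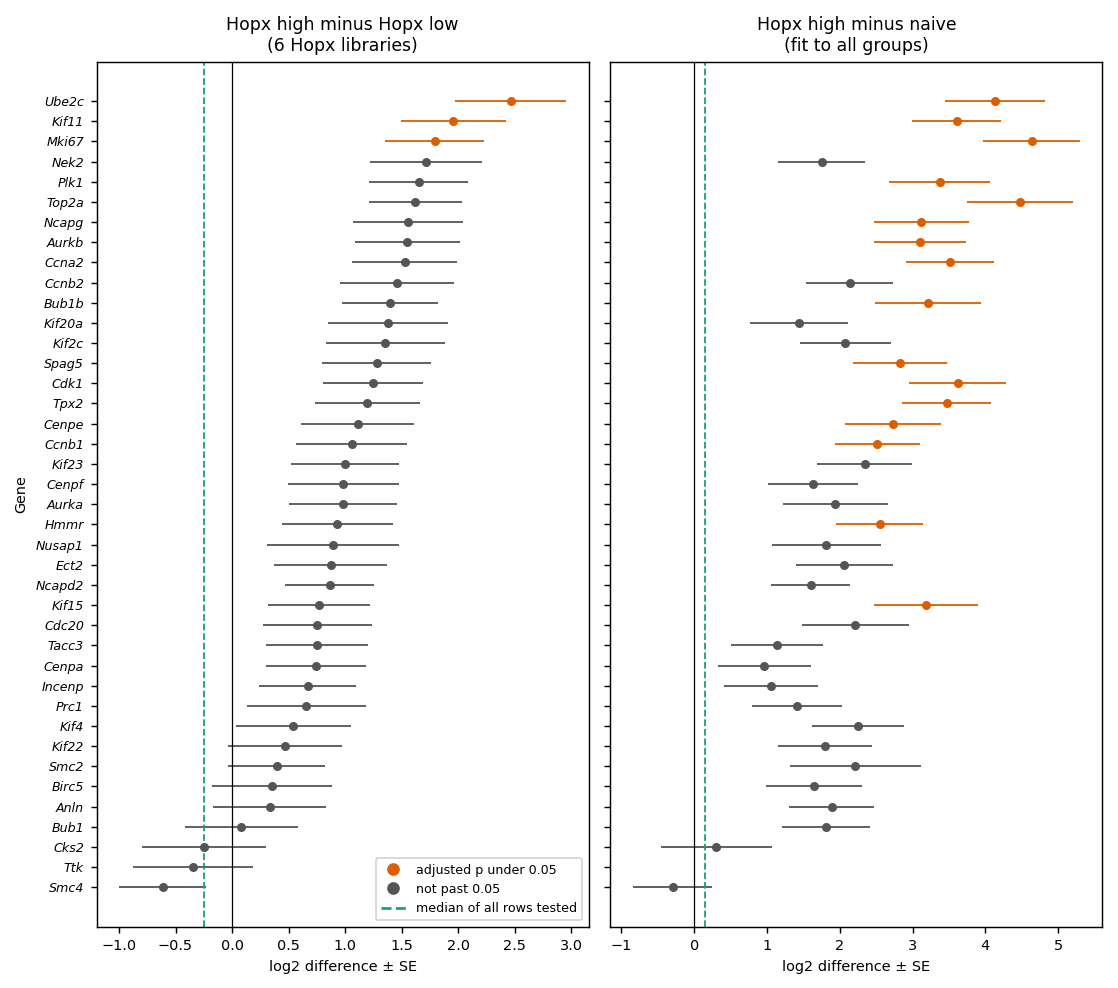
Log2 difference ± SE for each gene, Hopx high minus Hopx low, 6 libraries (left) and Hopx high minus naive in the fit to all groups (right), ordered by the left panel. Orange marks adjusted p under 0.05, and the dashed line is the median of all rows tested. 3 genes pass on the left and 16 on the right, and most others lie to the right of the dashed line in both panels.

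The anaphase-promoting complex marks mitotic proteins for destruction, and 2 of its partners are among the genes. Ube2c, the ubiquitin-conjugating enzyme that starts the chains, had 25.3, 17.2 and 20.8 bases per Mb in Hopx high, against 4.59, 0.716 and 5.49 in Hopx low and 0, 0 and 0.557 in naive. Its groups did not overlap. The log2 difference between Hopx high and Hopx low was 2.46 ± 0.49 (SE, adjusted p = 0.0103, limma on 6 libraries), the largest of the 40, and higher in 3 of 3 pairs. With all groups in the fit the adjusted p was 0.387. With the replicate number as a block it was 0.0202. Without Hopx high 1, Hopx high 3, Hopx low 2 or Hopx low 3 in turn it was 0.0587, 0.115, 0.102 and 0.0544, and without Hopx high 2 or Hopx low 1 it was 0.00270 and 0.000811. Ube2c lies on chromosome 2 (164769898 to 164778822, plus strand, mm10) and shares 592 exon bases with Tnnc2 on the other strand, a muscle gene whose row was at 0 in 8 libraries and 0.349 in Hopx high 3. Cdc20, the activator that brings substrates to the complex, had 14.4, 6.09 and 7.78 bases per Mb in Hopx high, against 8.80, 3.04 and 4.05 in Hopx low and 0, 0 and 3.51 in naive. Its Hopx groups overlapped (log2 difference 0.75 ± 0.48, adjusted p = 0.617). Of the complex itself, none of 14 listed subunits, activators and helpers was called in any comparison, and their median log2 difference between Hopx high and Hopx low was 0.03, with 7 of 14 positive, beside -0.25 over all rows.

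Kinesins move along microtubules and 7 of them are among the genes. Kif11, the motor that pushes the spindle poles apart, had 10.6, 12.9 and 17.4 bases per Mb in Hopx high, against 2.24, 2.93 and 2.98 in Hopx low and 0, 0 and 0.394 in naive. The Hopx groups were separated by a wide gap, with a log2 difference of 1.96 ± 0.46 (adjusted p = 0.0306, limma on 6 libraries). The adjusted p was 0.435 in the fit to all groups, 0.0567 with the replicate block, and 0.0604 to 0.230 when any 1 of the 6 libraries was left out. Kif11 lies on chromosome 19 (37376403 to 37421859, plus strand). Of the other motors, Kif2c, which takes microtubules apart at kinetochores, had 4.57, 3.45 and 2.94 bases per Mb in Hopx high, against 0.583, 0 and 2.68 in Hopx low and 0, 0 and 0.194 in naive. Kif20a and Kif23, which act in cytokinesis, also had Hopx groups that did not overlap. Kif20a had 7.09, 3.76 and 3.51 bases per Mb in Hopx high, against 1.5, 0 and 2.96 in Hopx low and 0, 0.959 and 1.84 in naive. It shares 1271 exon bases with Cdc23 on the other strand, whose row was at 26.9 to 38.9 in Hopx high, 30.0 to 47.9 in Hopx low and 5.64 to 64.4 in naive. The sources used here do not state whether counting used strand, so reads of such a pair cannot be told apart. Kif23 had 10.9, 6.22 and 5.61 bases per Mb in Hopx high, against 1.95, 3.78 and 4.02 in Hopx low and 0, 0 and 1.65 in naive. Kif15, a second motor that keeps the poles apart, had 19.9, 26.2 and 10.5 bases per Mb in Hopx high, against 7.53, 9.11 and 14.4 in Hopx low and 0, 0 and 3.23 in naive, and its Hopx groups overlapped. Kif4 and Kif22 overlapped as well, and Kif4 shares 832 exon bases with Pdzd11 on the other strand. The 7 log2 differences between Hopx high and Hopx low ran from 0.47 for Kif22 to 1.96 for Kif11.

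Among the genes of chromosome structure, Mki67, which encodes the Ki-67 protein that coats mitotic chromosomes and marks cycling cells, had 49, 24.1 and 36.5 bases per Mb in Hopx high, against 7.55, 7.23 and 15.1 in Hopx low and 0, 0 and 1.11 in naive. The 3 groups did not overlap. The log2 difference between Hopx high and Hopx low was 1.79 ± 0.44 (adjusted p = 0.0397, limma on 6 libraries). It was 0.769 in the fit to all groups and 0.0684 with the replicate block, and it stayed under 0.05 when Hopx high 2 was left out (0.0305) but not when any other library was (0.0908 to 0.230). Mki67 lies on chromosome 7 (135689784 to 135716361, minus strand). Top2a, topoisomerase II alpha, was next in line, with 53.3, 52.5 and 64.6 bases per Mb in Hopx high, against 12.7, 14.6 and 29.7 in Hopx low and 0, 0 and 5.65 in naive. Its groups were apart, and its log2 difference between Hopx high and Hopx low of 1.62 ± 0.41 missed the threshold (adjusted p = 0.0530). It holds a small nucleolar RNA gene on the same strand. Ncapg, a condensin I subunit, had 11.5, 11.6 and 7.39 bases per Mb in Hopx high, against 1.58, 1.88 and 6.02 in Hopx low and 0, 0 and 0.602 in naive. It shares 944 exon bases with Lcorl on the other strand. The Lcorl row was at 5.09 to 8.24 in Hopx high, 7.18 to 13.7 in Hopx low and 1.09 to 20.3 in naive.

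**Figure D5:**
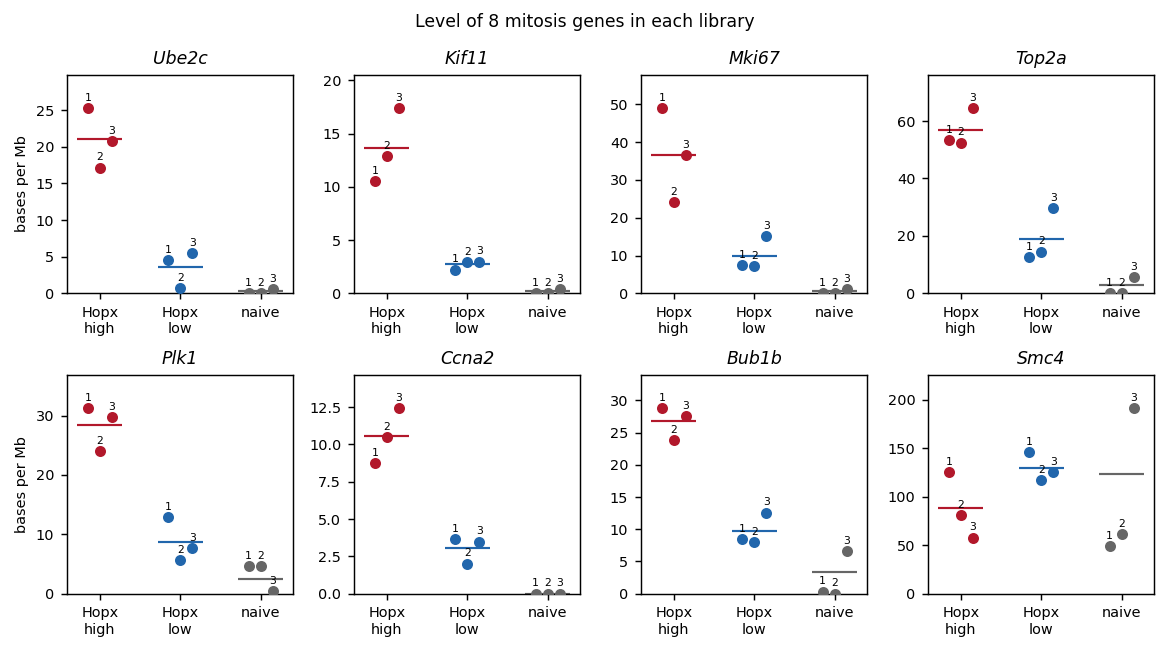
Level in bases per Mb of 8 genes in each library, with replicate numbers beside the points and group means as bars, naive 1 and 2 counted once. 7 genes have Hopx high libraries above all Hopx low libraries, and Smc4 does not.

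None of the condensin subunits passed between the Hopx groups. Ncapd2, of condensin I, had 81.2, 49.2 and 75.9 bases per Mb in Hopx high, against 41.4, 27.1 and 43.2 in Hopx low and 15, 14.9 and 30.8 in naive (log2 difference between Hopx high and Hopx low 0.86 ± 0.39, adjusted p = 0.466). It shares 237 exon bases with the small RNA Scarna10, whose own row was at 1215 to 7570 in Hopx high, 1659 to 4423 in Hopx low and 2283 to 4605 in naive, and its part in the Ncapd2 values was not tested. Smc2 overlapped between Hopx high (16.7 to 25) and Hopx low (10.6 to 21.3), and was at 0, 0 and 19.8 in naive. Smc4, its partner in every condensin, had 126, 81.1 and 57.9 bases per Mb in Hopx high, against 146, 117 and 125 in Hopx low and 49.5, 61.7 and 191 in naive. In each replicate pair Hopx high was lower than Hopx low, the groups overlapped, and the log2 difference was -0.61 ± 0.39 (adjusted p = 0.610, 95% interval -1.40 to 0.17). It was also the gene with the highest level per kb of exon, at 16.9 ± 6.63 bases per Mb in Hopx high, 24.9 ± 2.82 in Hopx low and 23.7 ± 18.4 in naive (SD, n = 3, 3 and 2 samples). The microRNA genes Mir15b and Mir16-2 lie inside Smc4 on the same strand. The Mir16-2 row was at 6.13 to 63.0 bases per Mb in Hopx high, against 14.1 to 90.5 in Hopx low and 1.02 to 10.2 in naive.

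Of Cdk1, its cyclins and Cks2, all but Cks2 had Hopx groups that did not overlap. Cdk1, the kinase itself, had 26, 20.4 and 13.5 bases per Mb in Hopx high, against 7.11, 6.14 and 9.90 in Hopx low and 0, 0 and 1.74 in naive. Ccna2, cyclin A2, had 8.74, 10.5 and 12.4 bases per Mb in Hopx high, against 3.65, 2.02 and 3.49 in Hopx low and 0 in each naive library. Both were separated between all 3 groups, and neither passed between Hopx high and Hopx low (log2 differences 1.24 ± 0.44 and 1.53 ± 0.47, adjusted p = 0.264 and 0.156). Ccna2 shares 510 exon bases with Exosc9 on the other strand. Exosc9 was at 16.5 to 30.1 in Hopx high, 17.4 to 48.3 in Hopx low and 26.5 to 44.7 bases per Mb in naive, so its row did not follow that of Ccna2. Ccnb1, cyclin B1, had 4.75, 3.86 and 5.71 bases per Mb in Hopx high, against 0.841, 2.16 and 2.59 in Hopx low and 0 in each naive library. Ccnb2, cyclin B2, had 4.62, 4.71 and 3.30 in Hopx high, 2.17, 0.315 and 0.585 in Hopx low and 0, 0 and 0.381 in naive. Cks2, the small subunit that docks Cdk1 on its targets, was the exception. Its values of 14.7, 1.56 and 3.18 bases per Mb in Hopx high, against 10.7, 4.75 and 3.19 in Hopx low and 3.90, 1.91 and 4.11 in naive overlapped in all 3 groups (log2 difference between Hopx high and Hopx low -0.25 ± 0.55, 95% interval -1.36 to 0.86).

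Plk1, Nek2 and Aurka, grouped here as mitotic kinases, were each separated between the Hopx groups and none passed. The checkpoint kinases Bub1 and Ttk, described below, overlapped. Plk1, which drives entry into mitosis and spindle assembly, had 31.2, 24.1 and 29.8 bases per Mb in Hopx high, against 12.9, 5.66 and 7.73 in Hopx low and 4.60, 4.62 and 0.408 in naive. Per kb of exon it was the second of the 40 in Hopx high, at 12.9 ± 1.72 bases per Mb, against 3.98 ± 1.68 in Hopx low and 1.14 ± 1.35 in naive (SD, n = 3, 3 and 2 samples). Its log2 difference between Hopx high and Hopx low was 1.65 ± 0.44 (adjusted p = 0.0677). Nek2, which parts the centrosomes, had 4.90, 3.66 and 4.06 bases per Mb in Hopx high, against 0.393, 0.334 and 1.13 in Hopx low and 1.07, 1.66 and 0 in naive. Its ratio of group means, 6.81, was the highest of the 40, at low coverage (adjusted p = 0.120), and Hopx low overlapped naive. Aurka, Aurora A at the spindle poles, had 11.8, 7.20 and 5.20 bases per Mb in Hopx high, against 4.35, 2.18 and 3.97 in Hopx low and 0, 0 and 4.10 in naive. The chromosomal passenger complex corrects faulty attachments. Its kinase Aurkb had 12.8, 12.6 and 9.04 bases per Mb in Hopx high, against 4.67, 2.44 and 2.86 in Hopx low and 0, 0 and 1.08 in naive. Its scaffold Incenp had 18.6, 31.1 and 15.1 in Hopx high, 11.8, 12.8 and 13.3 in Hopx low and 0, 10.9 and 15.7 in naive. The third subunit, Birc5 (survivin), overlapped between Hopx high (1.12 to 7.80) and Hopx low (1.19 to 2.23).

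None of the 3 spindle checkpoint genes passed between the Hopx groups. Bub1b, which encodes the checkpoint inhibitor BubR1, had 28.8, 23.9 and 27.6 bases per Mb in Hopx high, against 8.43, 8.02 and 12.6 in Hopx low and 0.332, 0 and 6.62 in naive (log2 difference between Hopx high and Hopx low 1.40 ± 0.43, adjusted p = 0.155). Bub1, a checkpoint kinase at the kinetochore, had 4.45, 1.34 and 3.60 bases per Mb in Hopx high, against 2.05, 2.72 and 3.35 in Hopx low and 0, 0 and 0.221 in naive. Its log2 difference between Hopx high and Hopx low of 0.08 ± 0.50 was the smallest of the 40, with a 95% interval of -0.92 to 1.09. Ttk, the kinase Mps1, had 2.11, 1.13 and 0 bases per Mb in Hopx high, against 0.676, 1.84 and 1.88 in Hopx low and 0 in each naive library. It fell below the filter in the fits to all groups, and its log2 difference in the 6 Hopx libraries was -0.35 ± 0.53.

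Of the 6 spindle microtubule proteins, Tpx2, Hmmr, Spag5 and Tacc3 were separated between the Hopx groups, and Nusap1 and Prc1 overlapped. Tpx2, which activates Aurora A on the spindle, had 13.7, 8.56 and 8.64 bases per Mb in Hopx high, against 2.61, 5.42 and 3.85 in Hopx low and 0 in each naive library. Spag5, a spindle and kinetochore protein, had 9.68, 6.73 and 10.2 in Hopx high, 1.94, 2.08 and 6.13 in Hopx low and 0, 1.5 and 0.0727 in naive. Tacc3, which links spindle fibres, had 12.5, 9.73 and 10.2 in Hopx high, 4.51, 7.37 and 6.40 in Hopx low and 3.19, 2.91 and 6.08 in naive. Hmmr, a spindle-pole protein, had 4.67, 4.37 and 5.55 bases per Mb in Hopx high, against 0.938, 2.28 and 3.56 in Hopx low and 0 in each naive library. The log2 differences between Hopx high and Hopx low in this role ran from 0.66 for Prc1 to 1.28 for Spag5, and none passed. Prc1 shares 911 exon bases with Rccd1 on the other strand.

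At the centromere, Cenpa, the histone variant that marks its position, had 45.6, 14.6 and 27.7 bases per Mb in Hopx high, against 16.4, 18.7 and 12.0 in Hopx low and 18.6, 20.4 and 8.69 in naive. The 3 groups overlapped. Cenpf, of the outer kinetochore, had 6.88, 4.66 and 5.09 in Hopx high, 1.85, 1.35 and 4.24 in Hopx low and 1.07, 1.59 and 0.862 in naive, and its Hopx groups were apart. Cenpe, a kinetochore motor, overlapped between Hopx high (4.24 to 12.8) and Hopx low (1.54 to 5.11). For cytokinesis, Ect2, which switches on the contractile ring, had 4.70, 8.92 and 6.75 bases per Mb in Hopx high, against 2.90, 1.32 and 6.90 in Hopx low and 0.474, 0.381 and 1.32 in naive. Anln, anillin of that ring, had 4.45, 3.08 and 1.28 in Hopx high, 2.06, 2.05 and 1.72 in Hopx low and 0 in each naive library. Its log2 difference between Hopx high and Hopx low was 0.33 ± 0.50 (95% interval -0.68 to 1.34).

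Against naive cells, Hopx high cells had more RNA of many of these genes. limma called 16 of 39 higher and none lower in the fit to all groups, where 3.3% of 10825 rows were called higher and 0.499% lower. At an unadjusted p under 0.05 it was 34 of 39, all higher, against 11.1% of all rows higher and 4.36% lower. The 16 were Mki67, Top2a, Ube2c, Kif11, Ccna2, Tpx2, Cdk1, Aurkb, Plk1, Ncapg, Kif15, Spag5, Bub1b, Ccnb1, Hmmr and Cenpe. The largest log2 difference was that of Mki67, 4.64 ± 0.66 (adjusted p = 0.000418), followed by Top2a with 4.48 ± 0.73 (adjusted p = 0.00104), Ube2c with 4.13 ± 0.69 (adjusted p = 0.00130), Cdk1 with 3.62 ± 0.67 (adjusted p = 0.00297) and Kif11 with 3.61 ± 0.61 (adjusted p = 0.00143). For 34 of the 40 genes every Hopx high library lay above every naive library, as it did for 14.2% of all rows, and none lay wholly below (7.68% of all rows). The median log2 difference was 2.21, and 0.15 over all rows. With the replicate number of the Hopx libraries as a block, 5 of the 39 passed, Mki67, Ube2c, Kif11, Ccna2 and Tpx2 (adjusted p = 0.0243 to 0.0367), and Top2a did not (0.0501). Of 10825 rows, 170 were called higher with that block and 13 lower. Naive 3 is the deepest naive library and held the only coverage for many of these genes in that group. Without it naive is 1 sample, naive 1 and 2 averaged, so no calls are given. The median log2 difference was then 2.40, and 0.67 over all rows. Without Hopx high 1, 7 of 39 genes passed, where 1.27% of all rows were called higher.

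A fitted difference from a group at 0 depends on the 1 base per Mb added and is no bound. For the 7 genes at 0 in all naive libraries a bound was set with 3 reads of an assumed 100 bases over the 438.8 Mb of the 3 naive libraries together, or 0.684 bases per Mb. By that bound Ccna2 was at least 15.4-fold higher in Hopx high than in naive and at least 4.46-fold higher in Hopx low. Tpx2 was at least 15.1-fold higher in Hopx high and at least 5.80-fold in Hopx low, and Ccnb1 at least 6.99-fold and 2.73-fold. The bounds of Hmmr, Kif4, Anln and Ttk in Hopx high ran from 1.58-fold for Ttk to 7.12-fold for Hmmr. These bounds cover counting error in naive only. They take the Hopx group mean as it stands, without its counting error or the spread among libraries. For Ttk in Hopx high that mean was 1.08 with an SD of 1.06, and Hopx high 3 was at 0. With these genes at their bound on the log2(bases per Mb + 1) scale, the median over 39 genes was 2.06 for Hopx high against naive and 1.27 for Hopx low against naive.

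Hopx low cells lay between. Against naive, limma called 0 of 39 genes in the fit to all groups (0.296% of rows higher, 0.00924% lower). At an unadjusted p under 0.05 it was 19 of 39, all higher, against 8.06% of all rows higher and 0.462% lower. The smallest p belonged to Mki67 (log2 difference 2.84 ± 0.66, adjusted p = 0.0806) and Top2a (2.86 ± 0.73, adjusted p = 0.101), followed by Tpx2, Cdk1, Kif15 and Ccna2 with log2 differences of 1.99 to 2.42. For 24 of the 40 genes all Hopx low libraries lay above all naive libraries, against 17.1% of all rows, and none lay wholly below (2.36% of all rows). All 39 log2 differences were positive, as were those of 8017 of the 10825 rows. The median of the 39 was 1.46, and 0.38 over all rows, but after quantile normalization 10 of 39 were negative. Without naive 3, or without naive 1 and 2, naive is 1 sample, so no calls are given. The median over the genes was 1.55 without naive 3, and 0.88 over all rows. Without naive 1 and 2 it was 1.08, and -0.15 over all rows. The authors' deposited table gave an unadjusted p under 0.05 for 19 of the 40 in Hopx low against naive and for 31 in Hopx high against naive, all higher, where 5.63% and 4.9% of all rows had one higher, and 0.695% and 2.15% one lower. The comparisons with naive share the naive libraries and are not independent of each other.

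Genes around this machinery were taken from lists. Of 69 other mitosis genes tested, Cit, citron kinase of the cytokinetic ring, was the 1 called higher in Hopx high than in Hopx low with 6 libraries in the fit. Cit had 9.58, 6.65 and 12.6 bases per Mb in Hopx high, against 1.45, 1.67 and 0.529 in Hopx low and 0 in each naive library (log2 difference between Hopx high and Hopx low 2.26 ± 0.49, adjusted p = 0.0153). Against naive, 19 of the 69 rose in Hopx high, led by Espl1, the separase that cuts cohesin, with 40.4, 34.3 and 37.4 in Hopx high, 14.3, 12.5 and 20.5 in Hopx low and 0, 0 and 2.32 in naive. Espl1 was also the 1 of 69 called higher in Hopx low than in naive (3.17 ± 0.66, adjusted p = 0.0404). Of 15 regulators of G2/M genes, Mybl2, which encodes B-Myb, had 48.6, 36.6 and 38.3 bases per Mb in Hopx high, against 14.2, 7.06 and 12.1 in Hopx low and 0, 1.22 and 1.74 in naive. It rose in Hopx high against Hopx low (log2 difference 1.84 ± 0.42, adjusted p = 0.0244, limma on 6 libraries) and against naive (4.32 ± 0.63, adjusted p = 0.000483). The other 14 regulators were not called. Foxm1 was at 14.8 to 25.6 bases per Mb in Hopx high, against 10.1 to 14.3 in Hopx low and 3.72 to 9.67 in naive, and the repressor E2f4 at 198 to 374, 236 to 356 and 138 to 164 in the same order of groups.

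The G1/S genes, which prepare and carry out DNA copying, were summed in the same way. The sum over 37 genes was 3561, 2811 and 1905 bases per Mb in Hopx high, against 1938, 1691 and 2152 in Hopx low and 545, 688 and 935 in naive, and Hopx high overlapped Hopx low. Of 37 tested in the 6 libraries, E2f1, an activator of this gene set, rose in Hopx high against Hopx low (log2 difference 1.81 ± 0.38, adjusted p = 0.0150), and the median over the list was 0.74 against 0.98 for the 40 mitosis genes. Against naive 16 of 36 rose in Hopx high and Chaf1a alone in Hopx low (adjusted p = 0.00493). Genes that hold back mitosis or set the state of Cdk1 showed no calls among 15, with a median log2 difference of 0.10 between Hopx high and Hopx low. Among them Cdkn1b, the inhibitor p27, was at 34.5 to 52.7 bases per Mb in Hopx high, against 56.7 to 89.0 in Hopx low and 56.2 to 122 in naive. Of 12 cohesin genes, Cdca5, which protects cohesin and also stands in the list of other mitosis genes, was the 1 called, in Hopx high against naive (3.62 ± 0.63, adjusted p = 0.00170). Of 11 B cell markers 3 were tested, and Cd79a was lower in Hopx high than in Hopx low (-2.10 ± 0.50, adjusted p = 0.0320, limma on 6 libraries) and than in naive (-3.03 ± 0.63, adjusted p = 0.00771). Against naive, markers of other cells were also called higher in Hopx high: Nkg7 of NK and cytotoxic T cells (3.75 ± 0.75, adjusted p = 0.00613) and Sdc1 of plasma cells (2.58 ± 0.68, adjusted p = 0.0401). Summed plasma cell markers, 5 rows, were at 53.3 to 129 bases per Mb in Hopx high, 115 to 162 in Hopx low and 104 to 131 in naive. Summed erythroid markers, 7 rows, were at 173 to 289.7 bases per Mb in Hopx high, 173 to 324 in Hopx low and 26.4 to 196 in naive, nearly all of it Tfrc, a gene that activated T cells also use. Their part in the results was not tested.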

How the data were processed

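RNA was measured in 9 libraries. Per the labels' protocols, rRNA was removed ahead of an Ion Torrent total RNA kit. The submitters' processing notes name bedtools and the mm10 build. The aligner, annotation and strand setting were not given in the sources used here. The authors deposited a coverage signal for 23171 gene rows. Tested on the values, each is the summed base coverage plus 1 base, scaled to the mean of the library totals (333 Mb), and 100% of recovered base counts were whole within 1e-06. The deposited table also holds the authors' ratio of group means (a fold) and an unadjusted p-value.

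The added base was removed and values were set to bases per Mb of the library. limma 3.58.1 in R 4.3.3 was run on log2(bases per Mb + 1) for rows with a mean of at least 1, with the variance trended on level and Benjamini-Hochberg adjustment over all such rows (threshold 0.05), as all groups in 1 fit and for the 6 Hopx libraries alone. Low genes have their change understated by such a fold. Naive 1 and 2, described as 1A and 1B, were averaged. Taking a read as 100 bases and leaving out Gas5, the median chi-square ratio was 1.03, and 6.73 to 20 for other pairs within groups. Same-numbered Hopx high and Hopx low libraries deviated together (r = 0.414, 0.376 and 0.160 over 8945 genes), so their numbers pair them by the rule of r over 0.1 in every pair. Naive numbers did not meet it. The fit was also run on simulated data with the same spread in every gene and group and changes only in genes at higher levels. That run does not cover a spread that differs between groups, or changes in genes at low levels.

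The 40 genes, the other lists and the 6-library fit were chosen with earlier results of these data known. Values in every library are given for genes called between the Hopx groups, the gene with the highest level per kb in each role, the 6 smallest p in each comparison with naive, genes whose Hopx groups do not overlap, the 3 smallest differences and genes below the filter, plus Cdc20 and Foxm1, chosen after their values were seen. Promoters were to be the 6 of smallest p with a CHR match in the window. This was narrowed afterwards to matches ahead of the start, which left out Plk1 and brought in Ncapg. From other lists up to 4 called genes, or up to 2 of the highest mean, could be named. Of 234 listed genes 4 had no row and 3 matched by another symbol. Promoters came from RefSeq (GRCm38.p6), gene coordinates and exon lengths from GENCODE M21. Tables and figures were made in Python 3.11.15 (pandas 2.3.3, matplotlib 3.10.9). Alternatives were the pseudocount, filter, trend, scaling, naive samples, samples in the fit, replicate block and leaving out each library.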

Additional observations from a re-analysis of the deposited data

How the results depend on the processing

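Named alternatives were run for Ube2c, Kif11 and Mki67 between the Hopx groups and for these with Top2a, Ccna2 and Tpx2 in Hopx high against naive, and none of these directions reversed. Other called genes were not rerun one by one. Leaving out a sample means 1 library or, where naive is in the fit, also naive 1 and 2 together. Without naive 3, or without naive 1 and 2 together, naive is 1 sample, so its spread cannot be measured. Counts against naive from those runs are part of the ranges below but are not read as calls. In both comparisons with naive, the largest counts of rows and of mitosis genes came from the run without naive 3. For Hopx high against Hopx low in the 6 libraries, 69 rows and 3 mitosis genes were called. The rows and mitosis genes called were 41 and 1 with a pseudocount of 0.1, 0 and 0 with no filter, and 42 and 6 with scaling by the median gene. With no variance trend 28 rows were called, with quantile normalization 8 mitosis genes, and with the replicate block 1. Leaving out a sample gave 5 to 79 rows, 0 to 2 mitosis genes and medians of 0.81 to 1.23. The median difference of the mitosis genes was 0.98, and 0.39 with a pseudocount of 10. Scaling by the median gene moved the median of all rows to -0.01 and that of the mitosis genes to 1.19, and the split of higher to lower rows was 53 to 16 in the fit described, 37 to 5 with that scaling and 77 to 11 with quantile normalization.

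In the fit to all groups, Hopx high against Hopx low gave 0 rows and 0 mitosis genes, 4 rows and a median of 0.40 with a pseudocount of 10, 69 and 3 with only those groups, and 1 row from the authors' deposited p-values after adjustment. Leaving out a sample gave 0 to 71 rows and 0 to 2 mitosis genes, with 57 and 2 without naive 3 and 71 and 2 without naive 1 and 2 together.

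Hopx high against naive gave 411 rows, 16 mitosis genes and a median of 2.21. Rows and mitosis genes were 240 and 10 with no filter, 866 and 26 with 9 separate samples, 183 and 5 with the replicate block on the Hopx libraries, 981 and 27 with the block by label number, and 11 and 0 from the authors' deposited p-values. Scaling by the median gene gave 721 rows and quantile normalization 731. The split of higher to lower rows was 357 to 54 in the fit described, 536 to 185 and 458 to 273 with those scalings, and 408 to 130 with a total without Gas5. The median was 4.19 and 0.63 with pseudocounts of 0.1 and 10, 3.15 with a filter at 5, 1.5 after quantile normalization and 5.46 on the values as deposited. Leaving out a sample gave 157 to 2706 rows, 7 to 29 mitosis genes and medians of 1.87 (without naive 1 and 2) to 2.40.

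Hopx low against naive gave 33 rows, 0 mitosis genes and a median of 1.46. Rows and mitosis genes were 58 and 3 with a pseudocount of 0.1, 82 and 4 on the values as deposited, 166 and 4 with 9 separate samples, and 227 and 5 with the block by label number. Rows were 19 with a pseudocount of 10, 8 with no filter, 5 with only those groups, 9 with the replicate block on the Hopx libraries and 1 from the authors' p-values, and mitosis genes were 1 with no variance trend and 1 with scaling by the median gene. The median was 2.98 and 0.31 with pseudocounts of 0.1 and 10, 0.63 after quantile normalization and 4.26 on the values as deposited. Leaving out a sample gave 16 to 2773 rows, 0 to 17 mitosis genes and medians of 1.08 (without naive 1 and 2) to 1.57. The cause of these shifts was not tested.

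Naive numbers did not meet the rule of r over 0.1 in every pair, so the block by label number is given only here. For numbers 1, 2 and 3, r of naive was 0.491, 0.0473 and 0.577 with Hopx low and 0.211, -0.133 and 0.0772 with Hopx high. With the block on the Hopx libraries Ube2c stayed called and Kif11 and Mki67 did not. The ratio of summed levels of Hopx high to Hopx low, 1.72, was 2.31 without Smc4, 2.38 without Smc4, Cks2 and Cenpa and 1.73 with totals that leave out Gas5, chosen after seeing the data. Depth limits the naive comparisons: 1 read of 100 bases is worth 1.58 bases per Mb in naive 1, and the median mitosis gene had 2.58 to 4.03 in Hopx low.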
